A study of Mus musculus with 9 samples.

Results

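Decorin (Dcn), biglycan (Bgn), asporin (Aspn), lumican (Lum), fibromodulin (Fmod), keratocan (Kera), prolargin (Prelp), osteomodulin (Omd), osteoglycin (Ogn) and podocan (Podn) are 10 genes of the small leucine-rich proteoglycan family, taken by symbol from the 23420 genes counted. Their RNA was measured by sequencing in mesenchymal cells of 3 tissues, with 3 libraries per tissue. All 10 passed the filter on low read counts, as did 15635 genes in all. The cells came from the thymus, from bone (femur, tibia and pelvis) and from skin of the trunk of C57BL/6 mice aged 3 to 4 weeks, with no genetic change or treatment named. In each preparation at least 25000 cells were sorted that carried SCA1, the surface protein made by Ly6a, and that were negative for CD45, CD31, EpCAM and other markers of blood, endothelial and epithelial cells. Enzymes were used to release the cells of thymus and bone, and bone was also crushed, so the preparation differs with the tissue. The labels number the thymus libraries 2, 3 and 1-3 and do not say what 1-3 means. If it is a pool, the thymus spread rests on fewer than 3 separate samples. No label ties the libraries to separate animals, so the p-values measure the spread between these libraries, which may be technical.

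Small leucine-rich proteoglycans are secreted proteins of the extracellular matrix. Each has a curved core made of leucine-rich repeats that binds collagen, and most of the genes studied here encode cores that limit or order the side-to-side growth of collagen fibrils. Class I members (Dcn, Bgn, Aspn) carry chondroitin or dermatan sulfate chains or, in the case of asporin, none. Class II members (Lum, Fmod, Kera, Prelp, Omd) can carry keratan sulfate or sulfated tyrosines, Ogn belongs to class III, and Podn to a later-described class. Decorin and biglycan also bind TGF-beta, and biglycan and fibromodulin help to maintain the progenitor niche of tendon in mice.

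Gene reads per library ranged from 78757872 to 116759235. Levels are read counts per library size (CPM), adjusted by TMM factors, which correct for differences in composition between libraries. These factors ran between 0.701 and 0.77 in skin libraries, and between 1.104 and 1.233 in thymus and bone libraries, so the comparisons with skin depend on this scaling. Pdgfra, a receptor of many mesenchymal cells, averaged 1160 CPM in thymus, 737 CPM in bone and 776 CPM in skin, and Ly6a averaged 427, 280.1 and 948 CPM in the same tissues. Markers of other cell types were also present. Summed myeloid markers reached 2498 to 3480.2 CPM in bone, against 11.5 to 38.1 CPM in thymus and 15.4 to 53.9 CPM in skin, although the sort used antibodies against myeloid cells.

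The windows of 250 bases upstream of the start sites annotated by RefSeq (GRCm38.p6) are shown for the 5 members that stood apart in thymus from both other tissues, since their shared pattern is described below: Bgn and Prelp were higher there, and Fmod, Aspn and Kera lower. The table of promoters held a window for 8 of the 10 members, not for Dcn or Lum. Both strands were searched for TATAAA, the core of a box that binds the general transcription machinery, for CANNTG, the E-box of factors such as scleraxis, for TGTGGT, a core bound by RUNX factors, and for CATTCC, a core bound by TEAD factors. Matches are in capitals. A TGTGGT match can overlap a CANNTG match. Of the 32851 windows of this length, TATAAA was found in 12.4%, CANNTG in 66.2%, TGTGGT in 14% and CATTCC in 12.6%. Each window is written 5′ to 3′ on the gene's strand.
Bgn, chrX:73483351-73483600, plus strand: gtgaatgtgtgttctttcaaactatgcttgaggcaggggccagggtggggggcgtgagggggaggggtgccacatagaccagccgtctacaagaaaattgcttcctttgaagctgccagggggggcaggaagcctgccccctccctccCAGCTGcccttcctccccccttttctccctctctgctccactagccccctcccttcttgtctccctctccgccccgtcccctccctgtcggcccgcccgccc
Prelp, chr1:133921402-133921651, minus strand: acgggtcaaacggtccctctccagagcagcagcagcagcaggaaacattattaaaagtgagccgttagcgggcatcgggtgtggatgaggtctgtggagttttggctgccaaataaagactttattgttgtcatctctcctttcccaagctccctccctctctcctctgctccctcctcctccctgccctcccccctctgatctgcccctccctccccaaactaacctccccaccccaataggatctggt
Aspn, chr13:49544193-49544442, plus strand: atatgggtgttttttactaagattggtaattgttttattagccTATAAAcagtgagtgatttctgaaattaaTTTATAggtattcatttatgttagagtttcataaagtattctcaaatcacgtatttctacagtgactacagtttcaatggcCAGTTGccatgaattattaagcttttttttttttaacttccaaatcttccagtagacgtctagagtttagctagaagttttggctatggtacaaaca
Fmod, chr1:134037004-134037253, plus strand: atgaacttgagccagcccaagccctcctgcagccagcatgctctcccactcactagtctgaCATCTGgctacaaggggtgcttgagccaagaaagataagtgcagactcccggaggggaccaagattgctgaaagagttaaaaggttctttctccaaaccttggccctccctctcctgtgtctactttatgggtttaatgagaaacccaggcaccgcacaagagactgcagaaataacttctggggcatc
Kera, chr10:97606955-97607204, plus strand: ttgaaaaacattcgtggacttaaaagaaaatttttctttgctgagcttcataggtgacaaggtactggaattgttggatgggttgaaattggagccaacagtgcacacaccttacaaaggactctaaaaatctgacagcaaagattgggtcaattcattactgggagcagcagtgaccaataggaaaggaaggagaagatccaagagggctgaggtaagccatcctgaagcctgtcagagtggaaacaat

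Counted back from the start site, the E-box match began at base -102 in Bgn, at -97 in Aspn and at -189 in Fmod. Aspn also held TATAAA matches at -207, on the gene's strand, and at -178, on the other strand. A match does not show that a site is used. The windows of Kera and Prelp held none of the 4 motifs. The windows ranged in G and C content between 30% in Aspn and 64.4% in Bgn, with 42.4% in Kera, 51.2% in Fmod and 55.6% in Prelp. None of the 4 motifs was thus present in the windows of all 3 members that were lower in thymus and higher in bone, and the E-box was in those of Aspn and Fmod. The start site of Fmod used here minus the start given in the deposited files is -261 bases. GENCODE, another annotation, starts Kera at base 97606879. The whole Kera window lies downstream of that start, so its lack of matches holds for the RefSeq start only.

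Together the 10 genes took 2.66 ± 0.307% of gene reads in thymus, 1.83 ± 0.103% in bone and 1.04 ± 0.179% in skin (SD, n = 3 each). The thymus libraries held 2.55, 2.42 and 3.00%, the bone libraries 1.71, 1.89 and 1.88%, and the skin libraries 0.874, 1.01 and 1.23%. The 3 tissues did not overlap in this share, which rests on library size alone. On the TMM scale the summed level was 20529.5 to 27205.5 CPM in thymus, 14721 to 16101 CPM in bone and 11349 to 16552 CPM in skin, where bone and skin overlapped and thymus lay above both. For comparisons between genes the deposited values normalised for gene length and read number (RPKM) were used. On that scale Dcn led the family in every library and ranked 2 to 5 among 23034 genes in thymus, 5 to 7 in bone and 6 in skin. Bgn held ranks 3 to 7 in thymus libraries, 8 to 11 in bone libraries and 45 to 70 in skin libraries.

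**Figure D1:**
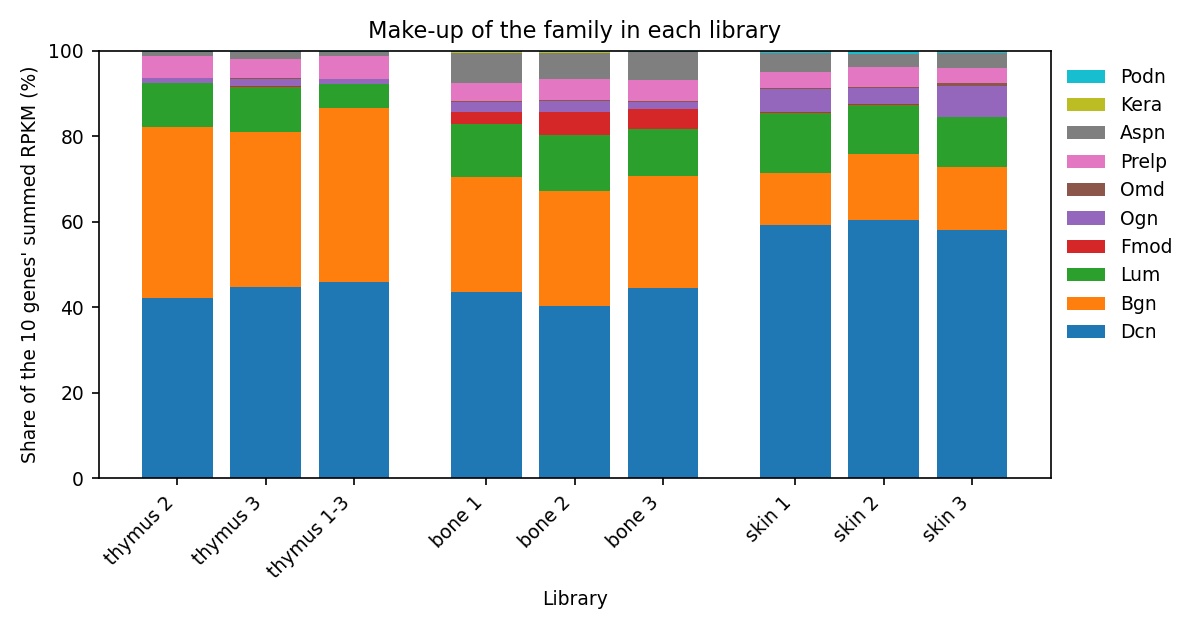
Share of the summed RPKM of the 10 genes taken by each gene, in percent, per library, for thymus, bone and skin. Bgn takes 39% of the sum in thymus, 26.6% in bone and 14.1% in skin, and Dcn takes 59.2% in skin.

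Of the summed RPKM of the family, Dcn made up 44.3 ± 1.93% in thymus, 42.9 ± 2.21% in bone and 59.2 ± 1.21% in skin, as the plot of shares shows. Bgn made up 39 ± 2.29% in thymus, 26.6 ± 0.393% in bone and 14.1 ± 1.68% in skin (SD, n = 3 each). The mix of the family thus differed between the tissues, with Bgn closest to Dcn in thymus. The ratio of Bgn to Dcn within a library, which needs no scaling between libraries, was 0.882 ± 0.0673 in thymus, 0.621 ± 0.04 in bone and 0.238 ± 0.0274 in skin, without overlap. Aspn made up 1.12% in thymus, 6.45% in bone and 3.67% in skin, and Fmod 0.0446%, 4.26% and 0.2% in the same tissues. The order of the 10 genes was the same in the 3 thymus libraries, with Dcn, Bgn, Lum, Prelp, Ogn, Aspn, Podn, Omd, Fmod and Kera from high to low RPKM. In bone Aspn held the fourth place in each library, and in skin Lum stood above Bgn in library 1 and below it in libraries 2 and 3.

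Transcripts of collagens I and III, which members bind, were highest in skin, whereas some other fibril collagen genes, such as Col2a1, were highest in bone. The summed RPKM of Col1a1, Col1a2 and Col3a1, the chains of collagens I and III, averaged 7016 ± 553 in thymus, 10176 ± 476 in bone and 42047 ± 1178 in skin (SD, n = 3 each). The 10 genes summed to 1.46, 1.24 and 1.74 times that collagen sum in the thymus libraries, to 0.643, 0.644 and 0.709 times it in bone, and to 0.0864, 0.099 and 0.127 times it in skin. The tissues did not overlap in this ratio, which is a transcript ratio within a library and does not depend on scaling between libraries. In bulk samples fewer cells that express a gene and less RNA of it per cell cannot be told apart, here and for every level that follows.

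**Figure D2:**
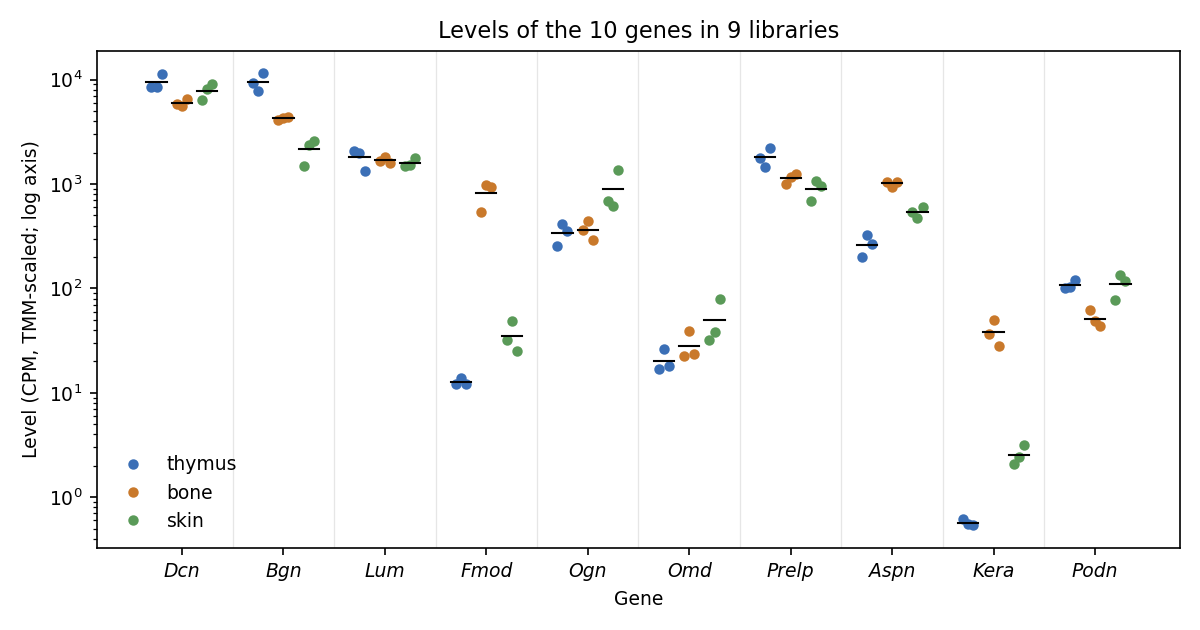
Level of each of the 10 genes in CPM (log axis) in each library of thymus, bone and skin; points are libraries and bars are means. Fmod and Kera are highest in bone by over an order of magnitude, Bgn runs thymus, bone, skin from high to low, and Lum overlaps in all 3 tissues.

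Among the class I genes, decorin transcripts, whose core protein binds collagen I and TGF-beta, had 8534, 8405 and 11381 CPM in thymus libraries 2, 3 and 1-3, against 5867, 5599 and 6511 CPM in bone libraries 1, 2 and 3, and 6311, 8166 and 9002 CPM in skin libraries 1, 2 and 3; values below keep this order. Every thymus library lay above every bone library, while skin overlapped with both. The log2 difference was 0.66 ± 0.18 for thymus minus bone (± SE; edgeR quasi-likelihood test with Benjamini-Hochberg adjustment over all 15635 genes, adjusted p = 0.0172). Without thymus library 1-3, bone library 1 or bone library 2 it was 0.48, 0.64 and 0.61. The adjusted p was then 0.0743, 0.0598 and 0.0671 in edgeR, so the call was lost in each of these fits. Among them the difference itself fell most without thymus library 1-3 and changed little without either bone library. Thymus minus skin was 0.27 ± 0.18 (adjusted p = 0.276), which became 0.90 with scaling by library size alone (adjusted p = 0.000611). Bone minus skin fell short of the threshold too, at -0.39 ± 0.18 (adjusted p = 0.105), but passed without skin library 1 (-0.52, adjusted p = 0.0321) and took the other sign, 0.31, with library size alone.

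Biglycan, the closest relative of decorin and a ligand of Toll-like receptors when released, had 9269.6, 7833 and 11478 CPM in thymus, against 4122, 4261 and 4367 CPM in bone and 1488, 2373 and 2606 CPM in skin. The 3 tissues formed 3 separate ranges. It was higher in thymus than in bone by 1.16 ± 0.22 on the log2 scale (edgeR, adjusted p = 0.00153), higher in thymus than in skin by 2.14 ± 0.22 (adjusted p = 1.7e-05) and higher in bone than in skin by 0.98 ± 0.22 (adjusted p = 0.00291). These calls held in all 20 alternative settings. The summed level of 6 pericyte and smooth muscle markers ran in the same order as Bgn. It was 733 to 1068 CPM in thymus, 328 to 367 CPM in bone and 48.7 to 125 CPM in skin. None of the 6 was at 0 in every library of a tissue. Most of the thymus sum was Des, which averaged 691 CPM in thymus, 12.6 CPM in bone and 11.7 CPM in skin. Between thymus and bone, 3 were higher in thymus (Des, Myh11, Tagln) and 2 lower (Rgs5, Cspg4). Rgs5 averaged 15.3 CPM in thymus and 72.2 CPM in bone, and Cspg4 23.8 and 212 CPM. Of the 6, 5 were higher in thymus than in skin (all genes tested 19.3%), and 3 were higher in bone than in skin (23.7%). Over all genes, 16.5% were higher and 16.1% lower in thymus than in bone. The sum of 7 thymocyte markers also ran in the order of Bgn. It was 55.7 to 160 CPM in thymus, 29.6 to 38.5 CPM in bone and 0.0733 to 0.623 CPM in skin. Ptcra was at 0 in every bone and skin library, and Cd3e in every skin library. The part of either set of cells in the level of Bgn was not tested.

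Asporin, which inhibits TGF-beta in cartilage, took another order. It had 199.8, 322 and 268 CPM in thymus, against 1049, 944 and 1045 CPM in bone and 536, 471 and 605 CPM in skin, again without overlap. It was lower in thymus than in bone by 1.95 on the log2 scale (log2 difference -1.95 ± 0.18, edgeR, adjusted p = 1.08e-05) and higher in bone than in skin (0.92 ± 0.18, adjusted p = 0.00136). Thymus minus skin was -1.03 ± 0.18 (adjusted p = 0.000792) and lost the call with library size alone, at -0.40 (adjusted p = 0.085). Within a library the ratio of Aspn to Dcn was 0.0252 ± 0.00759 in thymus, 0.15 ± 0.00815 in bone and 0.0621 ± 0.0123 in skin (SD, n = 3 each). The order of the tissues was the same in this ratio. The ratio needs no scaling between libraries but also carries the differences in Dcn, so it does not settle Aspn alone.

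Of the class II genes, lumican, a keratan sulfate proteoglycan of cornea, skin and tendon, differed least. It had 2076, 1963 and 1345 CPM in thymus, against 1651, 1815 and 1601 CPM in bone and 1493, 1521 and 1787 CPM in skin, and the 3 tissues overlapped. The log2 differences were 0.09 for thymus minus bone (adjusted p = 0.751), 0.17 for thymus minus skin (adjusted p = 0.508) and 0.08 for bone minus skin (adjusted p = 0.749), each with an SE of 0.18 in edgeR. None passed the threshold, which does not show that the levels were equal. With library size alone Lum was higher in thymus than in skin by 0.80 (adjusted p = 0.00332) and higher in bone than in skin by 0.77 (adjusted p = 0.00397). Thymus library 1-3 was the lowest of the thymus libraries for Lum and the highest for Dcn, Bgn, Prelp and Podn.

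Fibromodulin, which shares a collagen binding site with lumican and is abundant in tendon and cartilage, stood far apart in bone. It had 12.1, 14 and 12.1 CPM in thymus, against 545, 981 and 932 CPM in bone and 31.9, 48.2 and 25.3 CPM in skin. No ranges overlapped. The log2 difference was -6.01 ± 0.32 for thymus minus bone (edgeR, adjusted p = 3.1e-07), 4.54 ± 0.30 for bone minus skin (adjusted p = 8.66e-07) and -1.47 ± 0.26 for thymus minus skin (adjusted p = 0.00112). Per length, Fmod stood at 291 ± 90 RPKM in bone, close to Prelp at 319 ± 40.7 RPKM, and at 4.52 ± 0.568 RPKM in thymus and 8.45 ± 2.52 RPKM in skin (SD, n = 3 each).

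Keratocan, a keratan sulfate proteoglycan best known from the cornea, followed Fmod at lower levels. It had 0.621, 0.552 and 0.539 CPM in thymus, where that rests on 74, 66 and 55 reads, against 36.2, 50.2 and 28.3 CPM in bone and 2.08, 2.42 and 3.17 CPM in skin. The tissues did not overlap, and bone library 2 was the highest of the bone libraries in both genes. Its log2 difference was -6.06 ± 0.29 for thymus minus bone (edgeR, adjusted p = 9.26e-08), 3.90 ± 0.26 for bone minus skin (adjusted p = 6.93e-07) and -2.16 ± 0.26 for thymus minus skin (adjusted p = 4.88e-05). The ratio of Kera to Lum, its neighbour on chromosome 10, was 0.000346 in thymus, 0.0239 in bone and 0.00169 in skin.

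Genes that mark skeletal cells moved with Fmod, Kera and Aspn in the comparisons with bone. All 10 cartilage markers were lower in thymus than in bone and higher in bone than in skin, with summed levels of 16.7 to 26.2 CPM in thymus, 1532 to 1725 CPM in bone and 12 to 15.3 CPM in skin. Matn1 was at 0 in every thymus and skin library and Matn3 in every thymus library. All 5 tendon markers were lower in thymus than in bone, and 4 of 5 were higher and 1 was lower in bone than in skin. Their sum was 1396 to 1558 CPM in thymus, 3318 to 3668 CPM in bone and 4701 to 5051 CPM in skin. None of the 5 was at 0 throughout a tissue. Egr1, the 1 marker lower in bone than in skin, made up most of the sum in each tissue. It averaged 1208.5 CPM in thymus, 2101 CPM in bone and 4586 CPM in skin. The other 4 were highest in bone, and Tnmd averaged 0.238 CPM in thymus, 59.2 CPM in bone and 10.8 CPM in skin. Of the 7 osteoblast markers, 6 were lower in thymus than in bone and all 7 were higher in bone than in skin, with sums of 23.5 to 30.1 CPM in thymus, 478 to 1127 CPM in bone and 7.43 to 12.2 CPM in skin. Bglap was at 0 in every thymus library, and Ibsp and Dmp1 in every skin library. Between thymus and skin, where Fmod, Kera and Aspn were lower in thymus, 2 of the cartilage markers were higher and 1 lower in thymus, 2 of the osteoblast markers were higher and 1 lower, and 0 of the tendon markers were higher and 3 lower. The 7 myeloid markers were likewise all lower in thymus than in bone and all higher in bone than in skin. The part of these cells in the bone levels of the 3 genes was not tested.

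Prolargin, a heparin-binding member that anchors basement membranes to the matrix, ran with Bgn. It had 1780.5, 1452 and 2232 CPM in thymus, against 999, 1156 and 1260.4 CPM in bone and 684, 1071 and 955 CPM in skin. Thymus lay above both other tissues, which overlapped. It was higher in thymus than in bone by 0.68 ± 0.21 on the log2 scale (edgeR, adjusted p = 0.0248) and than in skin by 1.01 ± 0.21 (adjusted p = 0.00221), while bone minus skin was 0.33 ± 0.20 (adjusted p = 0.201). The call against bone was lost without thymus library 1-3 (0.49, adjusted p = 0.103), bone library 1 (0.60, adjusted p = 0.0938) or bone library 2 (0.69, adjusted p = 0.0633). With library size alone, bone minus skin passed at 1.03 (adjusted p = 0.000511). Prelp shares 350 exon bases with an antisense transcript, Gm15851, which was not among the counted genes. Whether the counting used strand is not stated, so reads of the pair cannot be told apart.

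Osteomodulin, a keratan sulfate proteoglycan of mineralised tissues, was low throughout. It had 16.7, 26.2 and 18.1 CPM in thymus, against 22.6, 38.7 and 23.4 CPM in bone and 32.3, 38.1 and 79.2 CPM in skin. Thymus and bone overlapped, as did bone and skin, and thymus lay below skin. Thymus minus skin was -1.29 ± 0.36 on the log2 scale (edgeR, adjusted p = 0.0167), a call that was lost without thymus library 2 (-1.17, adjusted p = 0.0656), without thymus library 1-3 (-1.23, adjusted p = 0.0648) and in 4 other settings. Bone minus skin was -0.82 ± 0.35 (adjusted p = 0.0823) and passed without bone library 2 (-1.12), without skin library 1 (-1.06) and in DESeq2 (-0.81, adjusted p = 0.0396). Thymus minus bone was -0.47 ± 0.35 (adjusted p = 0.341).

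Osteoglycin, also called mimecan, had 255, 413 and 352 CPM in thymus, against 366, 439 and 288 CPM in bone and 695, 622 and 1371 CPM in skin. Every skin library lay above every library of the other tissues, which overlapped. Thymus minus skin was -1.40 ± 0.31 on the log2 scale (edgeR, adjusted p = 0.00442) and bone minus skin -1.30 ± 0.30 (adjusted p = 0.0053), while thymus minus bone was -0.10 ± 0.30 (adjusted p = 0.836). With library size alone both differences from skin missed the threshold, at -0.77 (adjusted p = 0.0629) and -0.61 (adjusted p = 0.125).

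Skin library 3 was the highest skin library for Ogn, by 2.204-fold over the lowest, and for Omd, by 2.449-fold. That library was also the highest in Ly6a, at 1381 CPM against 669 and 794 CPM in skin libraries 1 and 2. Summed keratinocyte markers reached 128 CPM there, against 51.1 and 57 CPM. Summed myeloid markers were highest there too, at 53.9 CPM against 26.2 and 15.4 CPM. So were endothelial markers, at 343 CPM against 246 and 277 CPM. The same held for pericyte and smooth muscle, tendon, osteoblast and thymocyte markers. Cartilage and mesenchymal markers were highest in skin library 2. Of the 6 keratinocyte markers, 4 were lower in thymus than in skin, where 18.3% of all genes tested were. All 6 were lower in bone than in skin (all genes 23.4%). Their sums were 21.4 to 27.7 CPM in thymus and 2.7 to 4.2 CPM in bone, and none was at 0 throughout a tissue. The part of any of these cell types in the skin levels of Ogn and Omd was not tested. Without skin library 3, Ogn still differed between thymus and skin, by -0.95 (adjusted p = 0.0042).

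Podocan, described as a collagen-binding brake on smooth muscle growth in mice, had 100, 102 and 119.6 CPM in thymus, against 61.5, 48.9 and 43.7 CPM in bone and 77.1, 134 and 118 CPM in skin. Bone lay below both other tissues, and thymus and skin overlapped. It was higher in thymus than in bone by 1.06 ± 0.20 on the log2 scale (edgeR, adjusted p = 0.0016) and its bone minus skin difference was -1.09 ± 0.20 (adjusted p = 0.000819), the second of which missed the threshold with library size alone (-0.40, adjusted p = 0.0777). Thymus minus skin was -0.03 ± 0.20 (adjusted p = 0.922), and with library size alone it was 0.61 (adjusted p = 0.0132).

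**Figure D3:**
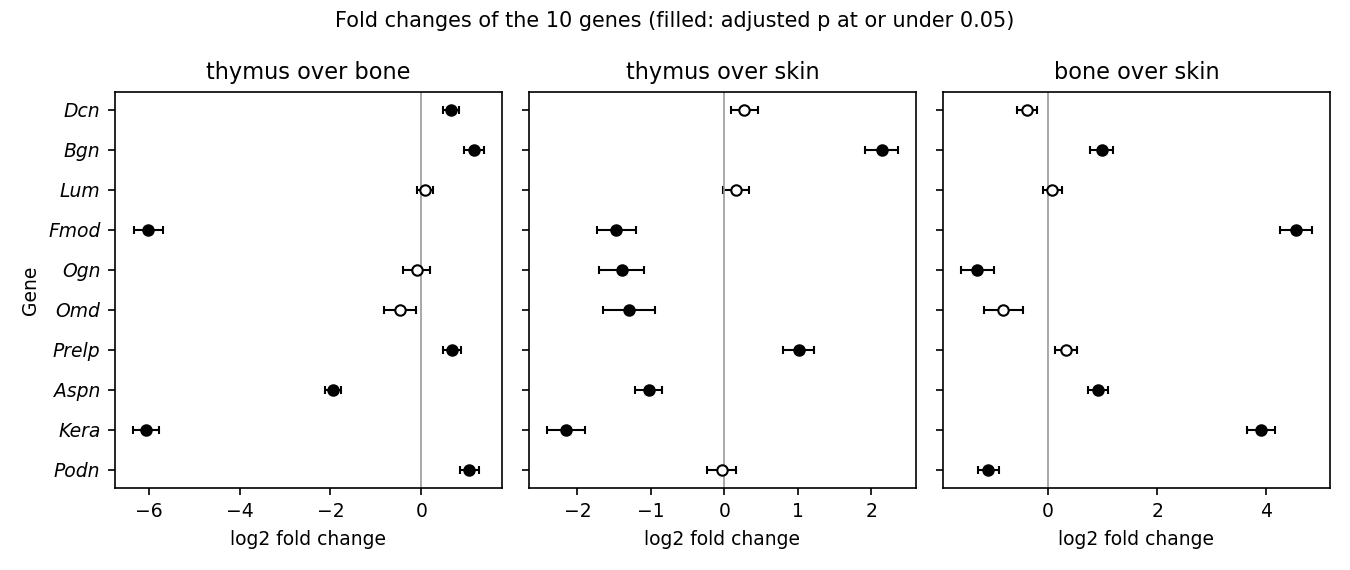
Log2 difference of each of the 10 genes for thymus minus bone, thymus minus skin and bone minus skin (points, edgeR; bars, SE; filled points passed an adjusted p of 0.05). Fmod and Kera reach -6.01 and -6.06 for thymus minus bone, and the Lum points sit within 0.17 of 0.

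Between thymus and bone, 4 of the 10 genes were higher in thymus (Dcn, Bgn, Prelp, Podn), where 16.5% of all genes tested were, and 3 were lower (Fmod, Aspn, Kera), where 16.1% were, with 32.6% called in either direction. Between thymus and skin, 2 were higher in thymus (Bgn, Prelp; 19.3% of all genes) and 5 were lower (Fmod, Aspn, Kera, Ogn, Omd; 18.3%), with 37.6% of all genes called in either direction. Between bone and skin, 4 were higher in bone (Bgn, Fmod, Aspn, Kera; 23.7%) and 2 were lower (Ogn, Podn; 23.4%), with 47.1% called in either direction. The family thus split by member in each comparison. Its median log2 difference was -0.007 for thymus minus bone, where that of all genes tested was 0.022, -0.531 for thymus minus skin (all genes 0.026) and 0.206 for bone minus skin (all genes 0.034). In each comparison the called members were also the ones without overlap between libraries, and the other members overlapped. So 4 of the 10 lay wholly above and 3 wholly below bone in thymus. These counts were 2 and 5 for thymus against skin, and 4 and 2 for bone against skin. Over all genes tested, called or not, 25.3% lay wholly above and 24.1% wholly below bone in thymus. For thymus against skin 27% and 25% did so, and for bone against skin 29.3% and 29.1%. Calls and separate ranges come from the same values, so the ranges add no support to the calls. Against both other tissues at once, Bgn and Prelp were higher in thymus (6.49% of all genes) and Fmod, Aspn and Kera lower in thymus (5.95%) and higher in bone (9.94%). Podn was lower in bone than in both others (9.5%), Ogn higher in skin (12.2%) and Bgn lower in skin (12.7%).

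**Figure D4:**
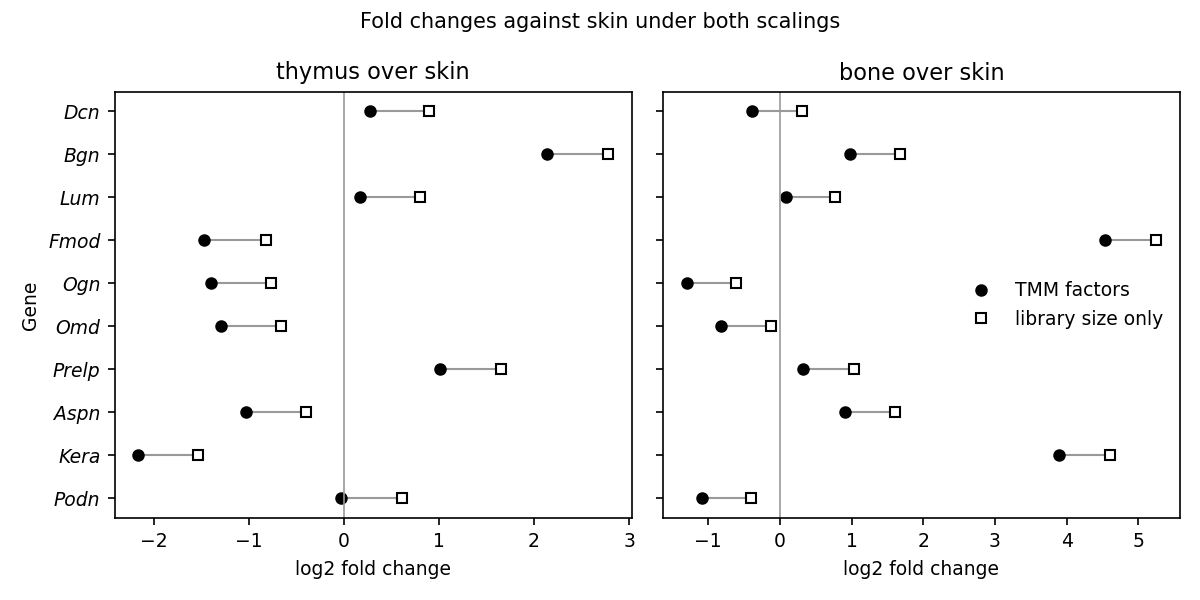
Log2 difference of each of the 10 genes for thymus minus skin and bone minus skin with TMM scaling and with scaling by library size alone. With library size alone the points lie higher, by about the shift of the median gene, 0.63 and 0.688.

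Scaling by library size alone moved the median of all genes by 0.630 for thymus minus skin and by 0.688 for bone minus skin, and made 85.4% and 84.3% of the called genes higher, in place of 51.3% and 50.3%. Of the 10 genes, 5 were then higher and 2 lower in thymus than in skin, and 6 were higher and 0 lower in bone against skin. Relative to the shifted median the members kept their places, as the plot of both scalings shows. The ratios within libraries did not depend on it: Fmod to Prelp was 0.0092 in thymus, 0.897 in bone and 0.0497 in skin, and Aspn to Ogn was 0.831 in thymus, 3.11 in bone and 0.708 in skin, where thymus and skin overlapped.

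Most of the members lie next to each other in the genome, in 3 groups. On chromosome 10 (mm10) Dcn spans 97479500 to 97518162, followed after 47339 bases by Lum (97565501 to 97572703), after 34502 by Kera (97607205 to 97613688) and after 30380 by Epyc (97644068 to 97681413), which encodes epiphycan of growth cartilage. On chromosome 13 Ecm2 (49504810 to 49532789) is followed after 11654 bases by Aspn (49544443 to 49567562), after 15185 by Omd (49582747 to 49592609) and after 15462 by Ogn (49608071 to 49624500). On chromosome 1 Optc (133897194 to 133907999) lies 2305 bases from Prelp (133910304 to 133921401), and Fmod (134037515 to 134048277) 116114 bases beyond that. Podn lies on chromosome 4 (108014793 to 108032090) and Bgn on the X chromosome (73483635 to 73495936), with no other member beside them.

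**Figure D5:**
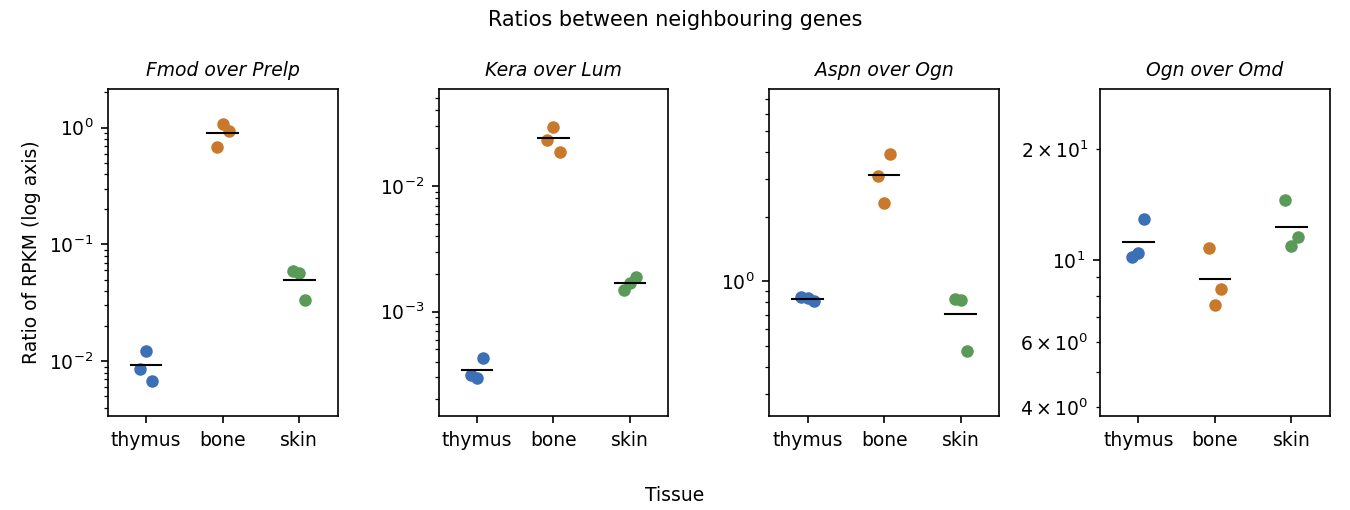
Ratio of RPKM between pairs of members of the same genomic group (log axis) in thymus, bone and skin. Points are libraries and lines are means. Omd lies between Aspn and Ogn. Fmod over Prelp and Kera over Lum are highest in bone and lowest in thymus without overlap, Aspn over Ogn is highest in bone, and for Ogn over Omd thymus overlaps with both other tissues while bone lies below skin.

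Some neighbours took unlike orders of the tissues and some like ones, as the plot of ratios between them shows. The ratio of Ogn to Omd was 11.2 ± 1.51 in thymus, 8.92 ± 1.68 in bone and 12.3 ± 1.92 in skin (SD, n = 3 each), where thymus overlapped with both other tissues and each bone library lay below each skin library. On chromosome 10 Dcn was higher in thymus than in bone and passed no test against skin, Lum passed none in the 3 comparisons, and Kera was highest in bone. Epyc averaged 8.73 ± 5.07 CPM in thymus, 10.7 ± 2.13 CPM in bone and 0.737 ± 0.204 CPM in skin (SD, n = 3 each), and was higher in thymus than in skin by 3.56 ± 0.50 on the log2 scale (edgeR, adjusted p = 0.000177). On chromosome 13 Aspn and Ecm2, which encodes a matrix protein with leucine-rich repeats, were both highest in bone, and Ogn in skin. On chromosome 1 Prelp and Fmod were called in opposite directions between thymus and bone. Cenpp, a kinetochore gene on the opposite strand, spans Ecm2, Aspn, Omd and Ogn and shares 7 exon bases with Aspn and 0 with the other 3, and Epyc shares 1041 exon bases with the counted transcript Gm10754 on the opposite strand.

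As a description across the 9 libraries, Fmod and Kera varied most alike among the members (Pearson r = 0.978 of log2 CPM), followed by Bgn and Prelp (0.952), Aspn and Kera (0.946), Ogn and Omd (0.922) and Fmod and Aspn (0.905), while Fmod and Podn ran opposite (-0.880). The 9 points share their tissues, so these values mostly restate the order of the tissues. Among 7482 genes of at least 20 CPM in a tissue, the 2 most like each member were Cyba (0.964) and Sod3 (0.956) for Dcn, Ndufa4l2 (0.994) and Adcy4 (0.990) for Bgn, Thrb (0.995) and Mfap3l (0.995) for Aspn, Sppl3 (0.951) and Sdcbp (0.892) for Lum, and Nr4a2 (0.995) and Smoc1 (0.993) for Fmod. For the others they were Hbegf (0.992) and Hoxa11 (0.992) for Kera, Cdk2ap2 (0.975) and Phc2 (0.967) for Prelp, Thbs2 (0.949) and Nsa2 (0.927) for Omd, Perp (0.967) and Prss23 (0.960) for Ogn, and Slit3 (0.982) and Daglb (0.977) for Podn. Such genes are the highest of 7482 values over only 9 points, a search that can give a high r by itself. None of these likenesses was tested.

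The 8 other genes of the family (Chad, Chadl, Ecm2, Epyc, Nyx, Optc, Podnl1, Tsku) were all tested. Between thymus and bone, 1 was higher and 3 lower in thymus, where 16.5% and 16.1% of all genes tested were. Between thymus and skin, 1 was higher and 3 lower in thymus (all genes 19.3% and 18.3%). With library size alone these counts were 3 and 0, where 7219 and 1239 of the 15635 genes were called. Between bone and skin, 4 were higher and 2 lower in bone (all genes 23.7% and 23.4%). With library size alone they were 4 and 2, where 7474 and 1391 genes were called. Chad, which encodes chondroadherin, an integrin-binding protein of cartilage, averaged 0.162 CPM in thymus, 272 CPM in bone and 1.11 CPM in skin, with a log2 difference of -10.72 ± 0.94 for thymus minus bone (edgeR, adjusted p = 2.31e-05) and 7.98 ± 0.82 for bone minus skin (adjusted p = 4.06e-05). Ecm2 averaged 146 CPM in thymus, 269 CPM in bone and 137.5 CPM in skin, and was higher in bone than in skin by 0.97 ± 0.14 (adjusted p = 0.000143). Tsku, which encodes tsukushi, a secreted modulator of BMP signals, averaged 58.8 CPM in thymus, 33.7 CPM in bone and 102 CPM in skin. The log2 difference was 0.80 ± 0.18 for thymus minus bone (adjusted p = 0.00527) and -0.80 ± 0.18 for thymus minus skin (adjusted p = 0.00452), the second of which was lost with library size alone (-0.16).

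The counts of other genes of the pathway are to be read against all genes tested. With TMM scaling 32.6% were called between thymus and bone, 37.6% between thymus and skin and 47.1% between bone and skin. The counts in parentheses, here and in the next paragraph, are with library size alone and have another background. On that scaling 7219 of 15635 genes were higher and 1239 lower in thymus than in skin. Between bone and skin 7474 were higher and 1391 lower in bone. Of 20 genes that build chondroitin and dermatan sulfate chains, 3 were higher and 8 lower in thymus than in bone, 2 higher and 8 lower in thymus than in skin (8 and 3 with library size alone), and in bone against skin 6 were higher and 9 lower (9 and 2). Chst11, a chondroitin 4-O-sulfotransferase, was lower in thymus than in bone (log2 difference -1.73 ± 0.15, edgeR, adjusted p = 6.05e-06) and than in skin (-1.68 ± 0.15, adjusted p = 5.53e-06). Ust, a uronyl 2-O-sulfotransferase, had a log2 difference of -2.41 ± 0.13 for thymus minus skin (adjusted p = 1.22e-07) and of -1.98 for bone minus skin. Of 9 genes for keratan sulfate and tyrosine sulfation, 3 were higher and 3 lower in thymus than in bone, 1 higher and 2 lower in thymus than in skin (3 and 2), and in bone against skin 4 were higher and 5 lower (4 and 3). Chst2, a sulfotransferase that acts on N-acetylglucosamine, averaged 16.5 CPM in thymus, 121 CPM in bone and 11.8 CPM in skin, and was higher in bone than in skin by 3.36 ± 0.23 (adjusted p = 8.44e-07).

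Of 11 fibril collagen and fibril-associated collagen genes, 1 was higher and 6 lower in thymus than in bone, 0 higher and 8 lower in thymus than in skin, and in bone against skin 4 were higher and 7 lower. Col1a1 was lower in thymus than in skin (log2 difference -3.80 ± 0.17, edgeR, adjusted p = 4.67e-08) and in bone than in skin (-2.89 ± 0.17, adjusted p = 2.57e-07). Of 8 protease genes, 1 was higher and 3 lower in thymus than in bone, 1 higher and 5 lower in thymus than in skin (2 and 3 with library size alone), and in bone against skin 1 was higher and 6 lower (1 and 1). Bmp1, the proteinase that trims the propeptide of biglycan and of procollagen, had a log2 difference of -1.50 ± 0.15 for bone minus skin (adjusted p = 1.32e-05). Of 10 genes for growth factors and receptors that the members bind, 0 were higher and 7 lower in thymus than in bone, 5 higher and 3 lower in thymus than in skin (7 and 2), and in bone against skin 7 were higher and 1 lower (8 and 0). Met, a receptor that decorin binds, was lower in thymus than in bone (-4.02 ± 0.21, adjusted p = 1.81e-07) and than in skin (-4.41 ± 0.22, adjusted p = 7.74e-08), whereas Tgfb1 was higher in bone than in skin (2.73 ± 0.26, adjusted p = 9.47e-06).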

How the data were processed

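RNA from sorted Lin- SCA1+ cells of thymus, bone and skin was sequenced in 9 libraries, 3 per tissue. Tools named in the submitters' processing notes, without roles, are CASAVA 1.8.2 and HTSeq 0.5.4, and the build is mm10. The sources used here do not give the aligner, the annotation or the use of strand. Deposited by the authors were whole-number read counts per gene symbol, and RPKM values with gene coordinates and a signal column that equals summed read bases (98.46 to 99.14 per read count), used as a check. Summary lines (5.05 to 14.8% of reads) were left out. Replicate libraries differed by chi-square values of 92.9 to 293.2 per degree of freedom, so none was treated as a copy.

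Tests of counts used edgeR 4.0.16 under R 4.3.3 (quasi-likelihood, robust, TMM factors, filterByExpr by tissue, 15635 genes), with the 9 libraries in 1 fit and Benjamini-Hochberg adjustment at 0.05 over all genes. The SE is the log2 difference over the square root of F, and is approximate. Levels are CPM scaled by TMM. RPKM was used between genes and for ratios, which were not tested. The script was tested on simulated counts. The members and the gene lists were chosen with earlier results of these data known, so no pattern here is independent support for an earlier one. Per list and comparison the up to 3 called genes with the smallest p and at least 20 CPM in the higher tissue could be named. Alternatives were RLE, upper quartile and library size scaling, other filters, DESeq2 1.42.0, limma 3.58.1 on log2 of RPKM plus 1 or 0.1, only the 2 tissues compared, a replicate block, and each library left out. Promoter windows are from RefSeq (GRCm38.p6), and overlapping genes from GENCODE.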

Additional observations from a re-analysis of the deposited data

How the results depend on the processing

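Of the 30 differences between tissues of the 10 genes, 12 kept direction and call in all 20 alternatives and 4 changed sign in at least 1. RLE and upper quartile factors, other count filters and fitting only the 2 tissues compared left every count of called members within 1.5 times the main count. Comparisons with skin turned on scaling. With library size alone, limma on RPKM plus 1, plus 0.1 and plus 1 without a filter, members higher in thymus than in skin numbered 5, 5, 5 and 5, in place of 2. Members lower in thymus than in skin numbered 2 with library size alone, 3 with RPKM plus 0.1 and 0 with RPKM plus 1 without a filter, in place of 5. Members lower in bone than in skin numbered 0, 1, 1 and 0 under those 4 settings, in place of 2. The cause was not tested beyond the shift of the median gene. All genes higher in thymus than in skin numbered 7219, 6482, 6557 and 6569 under those 4 (main 3013), lower 1239, 1173, 1188 and 1349 (main 2865), higher in bone than in skin 7474, 6218, 6219 and 6728 (main 3702), and lower 1391, 1534, 1529 and 1689 (main 3661).

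Leaving out 1 library at a time, members higher in thymus than in bone numbered 2 to 4 and members lower in bone than in skin 2 to 4, the 4 without skin library 1, where Dcn and Omd were added. Of the differences that were not called, 4 changed sign. Over the left-out libraries thymus minus bone of Lum ranged between -0.03 (without thymus library 2) and 0.24, and that of Ogn between -0.26 and 0.07, with 0.07 without thymus library 2 and 0.06 without bone library 2. Thymus minus skin of Podn was 0.61 with library size alone, 0.54, 0.56 and 0.54 in the RPKM fits, and 0.02, 0.00, 0.14 and 0.02 without thymus library 2, thymus library 3, skin library 2 and skin library 3, within a range of -0.23 to 0.14. Bone minus skin of Dcn was 0.31 with library size alone and 0.18 in each RPKM fit. Without a filter, limma on RPKM plus 1 gave Fmod -0.75 (adjusted p = 0.0501) and Kera -0.55 (adjusted p = 0.052) for thymus minus skin, where the added 1 exceeds the Kera values in RPKM of the thymus libraries and of skin libraries 1 and 2.

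Deviations of same-numbered libraries of different tissues correlated at -0.0419 to 0.0625, and not every library correlated best with its own number. These low values do not decide whether same-numbered samples were paired, which the labels do not say. With a replicate block, in which thymus library 1-3 had a block of its own, members higher in thymus than in bone numbered 2 in place of 4 (Dcn 0.42, adjusted p = 0.187, and Prelp 0.36, adjusted p = 0.215) and all genes higher in thymus than in bone 1663 in place of 2584. Depth limits little here except for Kera in thymus, which rests on 55 to 74 reads.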
